A study of Mus musculus with 6 samples.

Results

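Heat shock proteins and their DnaJ partners were taken as the protein-coding genes of the count table whose symbols belong to the Hspa, Hspb, Hsp90, Dnaja, Dnajb, Dnajc and Bag families, together with Hsph1, Hspd1, Hspe1 and the heat shock factors Hsf1 and Hsf2. This gave 78 of the 54532 genes, picked by symbol with earlier results of these data known. They were compared between 3 female and 3 male libraries of primary cultures labelled as wild-type mouse aortic endothelial cells (MAEC), to ask how endothelial cells differ by sex. All cultures were kept untreated in F-12 with fetal bovine serum, antibiotics, heparin and growth factors for endothelial cells, and no heat shock is named. Strain, age and the animal or culture behind each library are not given in the sources read, and p-values therefore reflect only how far these libraries spread, which may be technical.

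Molecular chaperones bind unfolded stretches of other proteins and release them in cycles of ATP hydrolysis. In the Hsp70 cycle a DnaJ protein delivers the client and starts hydrolysis, an exchange factor of the Hsp110 or Bag type opens the nucleotide site, and Hsp90 with its co-chaperones receives many kinase and steroid receptor clients, while small heat shock proteins hold clients without ATP. Under heat or oxidative stress the factor HSF1 binds heat shock elements and raises the inducible members, whereas chaperones of the endoplasmic reticulum (ER) follow the unfolded protein response. In blood vessels, Hsp90 is known as a partner of endothelial nitric oxide synthase and the small heat shock protein Hspb1 as a regulator of actin.

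Promoter windows of 300 bases (250 before to 50 after the start, RefSeq, GRCm38.p6) were matched for 63 of the 78 genes. The heat shock element was searched as 3 alternating units (GAA, TTC, GAA) with any 2 bases between neighbours, and as a shorter pair of such units (GAA then TTC, or TTC then GAA), on both strands, so that the longer one always contains the shorter. The 3-unit element was found in 4 of 63 members (6.35%), Dnajb6, Hspd1, Hspe1 and Hsph1, and in 0.662% of the 27025 genes of the table. The shorter pair was found in 16 members (25.4%) and in 17% of all genes. The ER stress response element, searched as CCAAT and CCACG with any 9 bases between them on both strands, was found in 3 members (4.76%), Hspa5, Hsp90b1 and Dnajc3, and in 0.137% of all genes. Such matches describe letters in these windows and do not show binding. The following stretches carry the 3-unit heat shock elements and the ER stress elements in capitals, and are shown because these were the rarer matches. They do not cover all members that hold the shorter pair, and members without a matched window were not searched. Hspa4l, whose window was matched, held none of these elements.
Hspe1 (chr1:55088054-55088081, plus strand, 2 overlapping 3-unit elements, in a window shared head to head with Hspd1): gtccgTTCTAGAACCTTCCGGAAggccc
Hsph1 (chr5:149636283-149636305, minus strand): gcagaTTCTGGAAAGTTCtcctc
Dnajb6 (chr5:29735847-29735869, plus strand): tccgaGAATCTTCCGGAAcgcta
Hspa5 (chr2:34772020-34772048, plus strand): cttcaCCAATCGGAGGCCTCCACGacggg
Hsp90b1, farther element (chr10:86705633-86705661, minus strand): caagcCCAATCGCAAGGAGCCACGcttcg
Hsp90b1, nearer element (chr10:86705528-86705556, minus strand, element on the other strand): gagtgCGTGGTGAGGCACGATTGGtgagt
Dnajc3 (chr14:118937822-118937850, plus strand): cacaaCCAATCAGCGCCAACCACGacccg
The stress-inducible Hsp70 copies Hspa1a and Hspa1b are shown over the 120 bases before their starts, with a 2-unit heat shock element in capitals, because their upstream sequences were 98.8% identical (3 of 250 bases differed) and their reads are hard to tell apart.
Hspa1a (chr17:34972157-34972276, minus strand): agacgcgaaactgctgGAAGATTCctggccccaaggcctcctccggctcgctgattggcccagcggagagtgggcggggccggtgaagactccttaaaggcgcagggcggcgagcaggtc
Hspa1b (chr17:34959239-34959358, minus strand): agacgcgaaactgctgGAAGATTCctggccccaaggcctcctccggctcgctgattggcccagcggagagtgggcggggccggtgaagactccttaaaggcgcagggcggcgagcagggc

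The libraries held 17410996 to 22993574 counts. The label of the cells did not match their markers: all 10 endothelial markers of a fixed list stayed under 1 CPM (counts per 1000000 of the TMM-scaled library total) in every library, and Cdh5, Tie1, Cldn5 and Robo4 had 0 counts in all 6. Fibroblast markers (7 genes) summed to 10547 to 11275 CPM in the female and 5985 to 6629 CPM in the male libraries. Of these 7, 4 were called higher in female (57.1%, against 9.68% of all tested genes). All marker lists were made with earlier results of these data known. Thy1 was called lower, at 206 ± 5.27 CPM over the female and 290 ± 43.3 CPM over the male libraries (SD, n = 3 each). Col1a1 and Col1a2 were not called (edgeR adjusted p = 0.179 and 0.591). Smooth muscle markers (5 genes) summed to 3.04 to 5.39 CPM in the female and 17.7 to 28.5 CPM in the male libraries, and macrophage markers (5 genes, with Ptprc at 0 in every library) to 12.7 to 18.1 CPM in female and 6.30 to 10.3 CPM in male ones. Mesothelial markers (5 genes) summed to 7.43 to 11.2 CPM in the female and 1.84 to 3.93 CPM in the male libraries. Single genes set most of the difference in each of these sums. Col3a1 averaged 4981 ± 227 CPM over the female libraries and 2016 ± 166 CPM over the male ones. Acta2 averaged 3.23 ± 0.750 CPM over the female libraries and 20.4 ± 6.01 CPM over the male ones (SD, n = 3 each), while Des had 24, 4 and 28 counts in the female libraries, against 0, 4 and 0 counts in the male libraries. Lyz2 averaged 12.7 ± 2.45 CPM over the female libraries and 5.23 ± 1.94 CPM over the male ones, while Csf1r had 9, 2 and 11 counts in the female libraries, against 12, 23 and 18 counts in the male libraries. Krt18, a keratin that is not specific to mesothelium, averaged 7.51 ± 1.40 CPM over the female libraries and 0.504 ± 0.25 CPM over the male ones, while Msln, Upk3b and Wt1 had 0 counts in all female libraries and 0 to 10 in the male ones. The 4 sums differed between the sexes without overlap, and their part in the chaperone results was not tested. Male replicate 3 stood apart, with correlations of log2 CPM of 0.977 and 0.984 to the other male libraries, which correlated at 0.993 with each other, against at least 0.992 among female libraries. Without it 10 members were called higher and 5 lower (21.1% of those tested, against 32.7% of all genes tested).

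Most chaperone genes differed little between the female and male cultures. Of the 71 members that passed the filter on low counts, 4 were called higher in female (5.63%, against 9.68% of all 14932 tested genes), 2 were called lower (2.82%, against 8.62%) and 65 were not called. The 4 that rose were Hspa4l, Dnajc15, Dnajc8 and Dnajc21, and the 2 that fell were Dnajc1 and Dnajb14. All but Hspa4l belong to the J proteins, and Hspa4l is an exchange factor of the Hsp110 type. J proteins are also most of the 71 tested members, with 24 Dnajc, 10 Dnajb and 4 Dnaja genes. In either direction the share was 8.45%, against 18.3% of all tested genes. In these bulk cultures, fewer cells of a type and less RNA per cell cannot be told apart.

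The size of the differences was small across the group. The median log2 fold change of female over male was 0.051 for the 71 members and -0.009 for all tested genes, and the median absolute value was 0.17 against 0.26. The members' fold changes ran from -0.54 to 1.36 on the log2 scale. Only Hspa4l (1.41% of members, against 13.5% of all tested genes) lay beyond a 2-fold difference. For 63 members (88.7%, against 64.4%) the 95% interval of the fold change stayed within 2-fold in either direction. The median SE of the log2 fold change was also smaller in members, at 0.136 against 0.179. Members were not compared with genes of similar level, so these shares do not show a trait of chaperones. Female and male libraries did not overlap in 22 members (31.0%, against 35.9%), with female above male in 12 and below in 10. Unadjusted p-values under 0.05 were reached by 15 members (21.1%, against 29.7%).

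**Figure D1:**
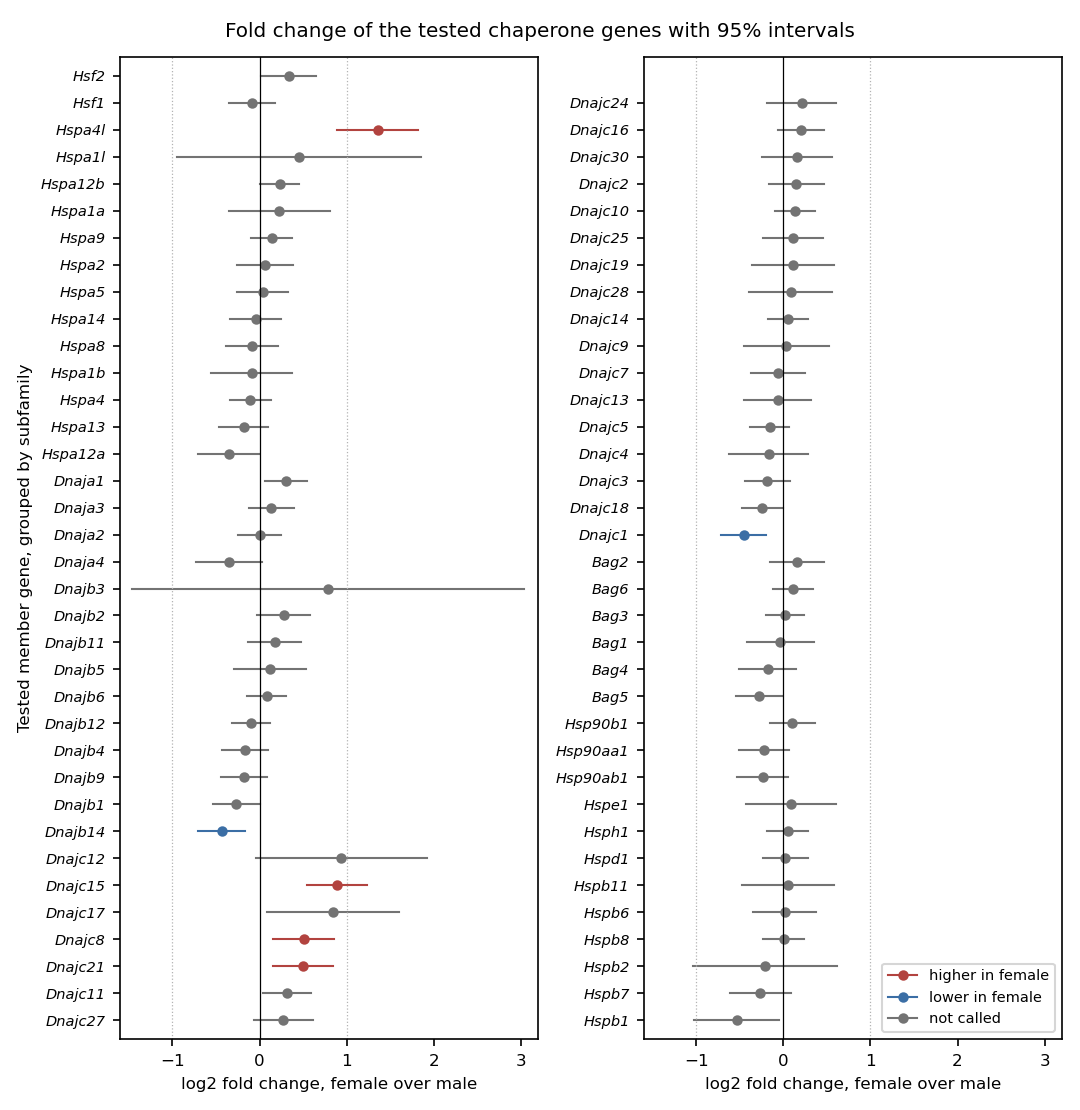
Log2 fold change of female over male (points) with 95% intervals (lines) for the 71 tested chaperone genes, grouped by family, with dotted lines at 2-fold differences in either direction. The 4 genes called higher and the 2 called lower in female are coloured, and for 63 of the 71 the interval stays between the dotted lines.

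Hspa4l, an Hsp110-type exchange factor known for its high level in testis (chr3:40744495-40796103, plus strand, in the coordinates of the table, whose build is not named), rose 2.56-fold in female. It stood at 72.2, 53.6 and 75.8 CPM in the female libraries, against 31.97, 28.1 and 18.6 CPM in the male libraries. Every female library lay above every male library, and male replicate 3 was the lowest of the 6. The log2 fold change was 1.36 ± 0.21 (SE; 95% interval 0.89 to 1.83; edgeR adjusted p = 0.00137), and 1.16 ± 0.13 without male replicate 3 (edgeR adjusted p = 6.96e-07). Its close relatives Hspa4, at -0.11 ± 0.10 (edgeR adjusted p = 0.559), and Hsph1, at 0.051 ± 0.10 (edgeR adjusted p = 0.796), were not called.

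Dnajc15, a J protein of the mitochondrial inner membrane known in mice as a brake on respiratory complex I (chr14:77820681-77875125, minus strand), also rose in female. Its level was 25.8, 24.9 and 26.3 CPM in the female libraries, against 11.3, 14.6 and 15.7 CPM in the male libraries. The female libraries were close to one another and all lay above the male ones. The log2 fold change was 0.89 ± 0.15 (95% interval 0.55 to 1.23; edgeR adjusted p = 0.00262), and 0.98 ± 0.15 without male replicate 3 (edgeR adjusted p = 1.93e-05). Its paralogue Dnajc19, which drives protein import at the same membrane, was not called (0.11 ± 0.21; edgeR adjusted p = 0.787).

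The other calls were smaller and rested on narrower margins. Dnajc8, a J protein found with splicing complexes (chr4:132535550-132553742, plus strand), stood at 100.4, 126 and 136 CPM in the female libraries, against 74.8, 79.6 and 101 CPM in the male libraries. Its highest male library, replicate 3, lay above the lowest female one, and the log2 fold change came to 0.51 ± 0.15 (edgeR adjusted p = 0.0496), or 0.65 ± 0.11 without male replicate 3 (edgeR adjusted p = 0.000115). Dnajc21, known from human cells as a factor in making the large ribosomal subunit (chr15:10446756-10470516, minus strand), had 25.4, 23.9 and 29.6 CPM in the female libraries, against 20.9, 15.9 and 19.1 CPM in the male libraries. The groups did not overlap, with log2 fold change 0.50 ± 0.15 (edgeR adjusted p = 0.0499, and 0.0103 without male replicate 3).

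Both members that fell in female encode J proteins anchored in the ER membrane. Dnajc1 (chr2:18195654-18392830, minus strand) stood at 71.5, 68.7 and 75.5 CPM in the female libraries, against 108, 100.3 and 86.9 CPM in the male libraries, with no overlap. It fell by 0.45 ± 0.12 (log2; edgeR adjusted p = 0.0213), with a fold change of -0.54 ± 0.094 without male replicate 3 (edgeR adjusted p = 0.000112). Its span overlaps that of Mllt10, on the other strand, by 16735 bases with introns included, and Mllt10 averaged 35.3 CPM. Of the 100-base words of Dnajc1 transcripts, 3.06% also occur in Mllt10 transcripts, read on either strand. Reads of such shared stretches may not be told apart if the counting ignored strand. Dnajb14 (chr3:137867675-137916557, plus strand) had 50.4, 44.8 and 42.6 CPM in the female libraries, against 68.9, 60.05 and 57.3 CPM in the male libraries, again with no overlap. It fell by 0.44 ± 0.12 (edgeR adjusted p = 0.0323, and 0.00115 without male replicate 3). The antisense gene Gm40155 within its span averaged 0.0285 CPM, and Gm25920, an snRNA gene there on the same opposite strand, 0 CPM. An snRNA gene opposite to Dnajc8, Gm24762, averaged 0.212 CPM.

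**Figure D2:**
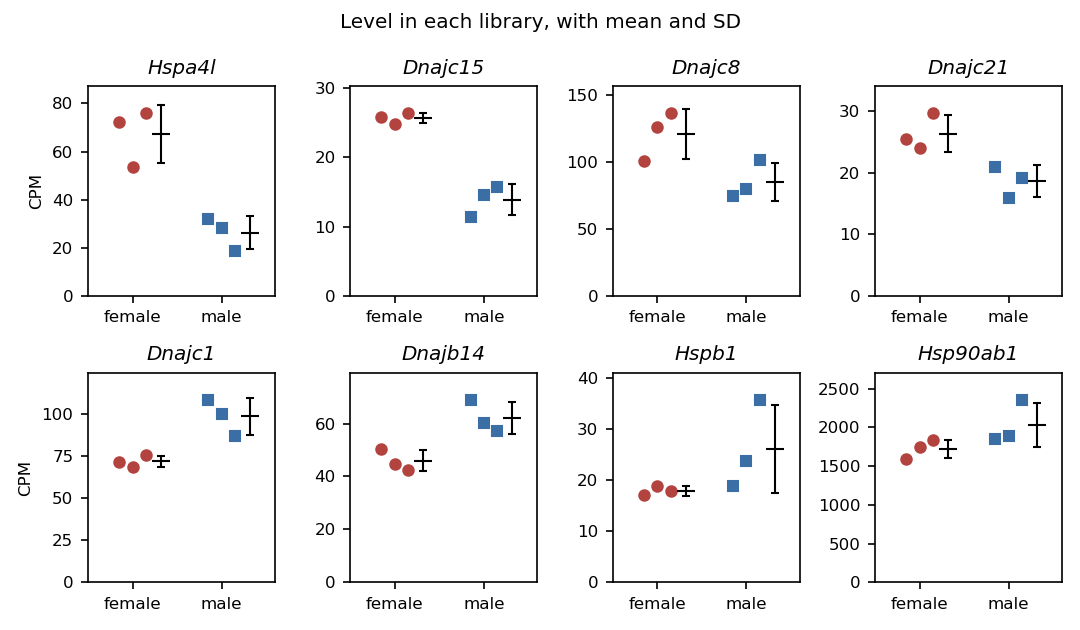
Level in CPM of the 6 called chaperone genes, of Hspb1 and of Hsp90ab1 in each of the 3 female (circles) and 3 male (squares) libraries, with the mean and SD of each sex as a cross with bars. In Hspb1 and Hsp90ab1, which were not called, the highest value is that of male replicate 3, at 35.8 and 2353 CPM.

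The heat shock factors themselves were not called by edgeR with all 6 libraries. Hsf1, the main factor of the heat response, stood at 49.97, 53.1 and 47.8 CPM in the female libraries, against 48.7, 52.2 and 59.4 CPM in the male libraries, with overlapping groups and log2 fold change -0.087 ± 0.12 (edgeR adjusted p = 0.678). Hsf2, a related factor known from development and the germ line, stood at 27.7, 27.7 and 27.3 CPM in the female libraries, against 25.7, 19.6 and 20.1 CPM in the male libraries. Its female libraries were almost level and all above the male ones, with a log2 fold change of 0.34 ± 0.14 that did not pass (95% interval 0.022 to 0.65; edgeR adjusted p = 0.14), though it passed without male replicate 1 (0.47, edgeR adjusted p = 0.0412) and with limma-voom and quality weights (0.45, adjusted p = 0.00233).

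Among 14 classic heat-inducible targets of HSF1, Hspa4l rose, 0 fell and 13 were not called (7.14% called, against 18.3% of all tested genes), with a median log2 fold change of 0.010. The counts of the inducible Hsp70 genes were low in all libraries, but their true levels are uncertain. Other genes share 56.5% of the 100-base words of Hspa1a and 49.9% of those of Hspa1b, and such reads may not have been counted. The gene Gm20481, at 0 CPM, also overlaps the span of Hspa1a by 2225 bases on the other strand. Hspa1a (chr17:34969190-34972156, minus strand) had 3.15, 4.28 and 3.12 CPM in the female libraries, against 3.00, 3.45 and 2.51 CPM in the male libraries. Hspa1b (chr17:34956436-34959238, minus strand) had 7.18, 10.6 and 7.95 CPM in the female libraries, against 7.80, 8.70 and 10.9 CPM in the male libraries. Both pairs of groups overlapped, with log2 fold changes of 0.23 ± 0.26 (edgeR adjusted p = 0.618) and -0.092 ± 0.21 (edgeR adjusted p = 0.815). Since 47.1% of the 100-base words of the Hspa1a transcripts also occur in those of Hspa1b, the counts of the pair were also summed, a choice made after the data were seen. The sum averaged 12.1 ± 2.46 CPM over the female and 12.1 ± 1.32 CPM over the male libraries (SD, n = 3 each), a log2 fold change of -0.0048 ± 0.18 with a 95% interval of -0.42 to 0.41 (edgeR adjusted p = 0.99).

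Immediate early genes, which answer cell handling and growth factors within minutes, did differ between the same libraries. In female, 7 of 10 such genes were called higher (70%, against 9.68% of all tested genes) and 1 lower (10%, against 8.62%). These 10 genes were listed with earlier results of these data known, so the shares only describe the list. The gene called lower was Egr2, at 23.8 ± 2.44 CPM over the female and 81.2 ± 2.79 CPM over the male libraries (SD, n = 3 each). The summed level of the 10 genes was 1806, 1877 and 1739.6 CPM in the female libraries, against 858, 935 and 1032 CPM in the male libraries. The part of this difference in the chaperone values was not tested.

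Dnajb1 and the small heat shock genes of the Hspb family were not called either by edgeR with all 6 libraries and the filter on low counts. Limma-voom with quality weights called Dnajb1 (adjusted p = 0.0109), Hspb1 (adjusted p = 0.0199) and Hspb7. Dnajb1, the main J partner of inducible Hsp70, stood at 39.6, 42.2 and 45.1 CPM in the female libraries, against 45.4, 52.2 and 54.9 CPM in the male libraries. Every male library lay above every female one, but the log2 fold change of -0.26 ± 0.12 did not pass (edgeR adjusted p = 0.17). Hspb1 (chr5:135887919-135889563, plus strand) had 17.1, 18.97 and 17.9 CPM in the female libraries, against 18.9, 23.8 and 35.8 CPM in the male libraries. Male replicate 1 lay below the highest female library and male replicate 3 was the highest of the 6, and the log2 fold change of -0.54 ± 0.22 was not called (95% interval -1.03 to -0.052; edgeR adjusted p = 0.127, and 0.0244 without male replicate 1). Without male replicate 3 it was -0.25 ± 0.14 (edgeR adjusted p = 0.2), while the call was made with no filter on low counts (edgeR adjusted p = 0.0143). Of its 100-base words 44.0% also occur in the pseudogene Hsp25-ps1, so its counts are uncertain. Hspb8, which works with Bag3 in clearing misfolded proteins and had the highest level per kb of the small heat shock genes, had a log2 fold change of 0.0018 ± 0.10 (95% interval -0.23 to 0.23; edgeR adjusted p = 0.993).

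The constitutive chaperones dominated the group. Levels between genes are compared as CPM per kb of the gene length in the table. Hsp90ab1, the constitutive cytosolic Hsp90, was the most abundant, at 532, 581 and 610.4 CPM per kb in the female libraries, against 618, 628 and 785 CPM per kb in the male libraries. Hspa8, the constitutive Hsp70 of the cytosol, had 289, 321 and 351 CPM per kb in the female libraries, against 327, 301 and 392 CPM per kb in the male libraries. In the ER, the Hsp90 form Hsp90b1 (GRP94) averaged 328 ± 16.8 CPM per kb in female and 305 ± 27.00 in male libraries and the Hsp70 form Hspa5 (BiP) 284 ± 20.95 CPM per kb in female and 276 ± 38.9 in male libraries (SD, n = 3 each). These 4 genes made up 54.3% of the summed level per kb of all 78 members. By family, Hsp90 genes held 36.4% of that sum, Hspa genes 27.3%, Dnajc genes 10.8%, Bag genes 7.86%, Hspd1, Hspe1 and Hsph1 6.27%, Dnajb genes 5.23%, Dnaja genes 2.99%, Hspb genes 2.82% and the heat shock factors 0.347%.

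None of these abundant members was called by edgeR, while limma-voom with quality weights called Hsp90b1 and Hspa5. Hsp90ab1 had a log2 fold change of -0.24 ± 0.13 (95% interval -0.53 to 0.056; edgeR adjusted p = 0.268), with all female libraries below all male ones, and -0.12 ± 0.089 without male replicate 3 (edgeR adjusted p = 0.342). Its inducible relative Hsp90aa1 stood at 321, 338 and 401 CPM in the female libraries, against 438, 368 and 434 CPM in the male libraries, with overlap (-0.23 ± 0.13; edgeR adjusted p = 0.278). Both cytosolic Hsp90 genes thus had fold changes below 0 that did not pass, while Hsp90b1 had 0.10 ± 0.11 (edgeR adjusted p = 0.607). For Hspa8 the value was -0.087 ± 0.13 (edgeR adjusted p = 0.727), which turned to 0.026 without male replicate 3. Hspa5 had 0.039 ± 0.13 (edgeR adjusted p = 0.878), and its sign also turned when single libraries were left out. Counts of Hsp90aa1 and Hspa8 are uncertain, since 38% and 28.5% of their 100-base words also occur in transcripts of other genes. Together the 78 members took 1.08 ± 0.0580% of all counts in female and 1.06 ± 0.0737% in male libraries (SD, n = 3 each), with overlapping groups.

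**Figure D3:**
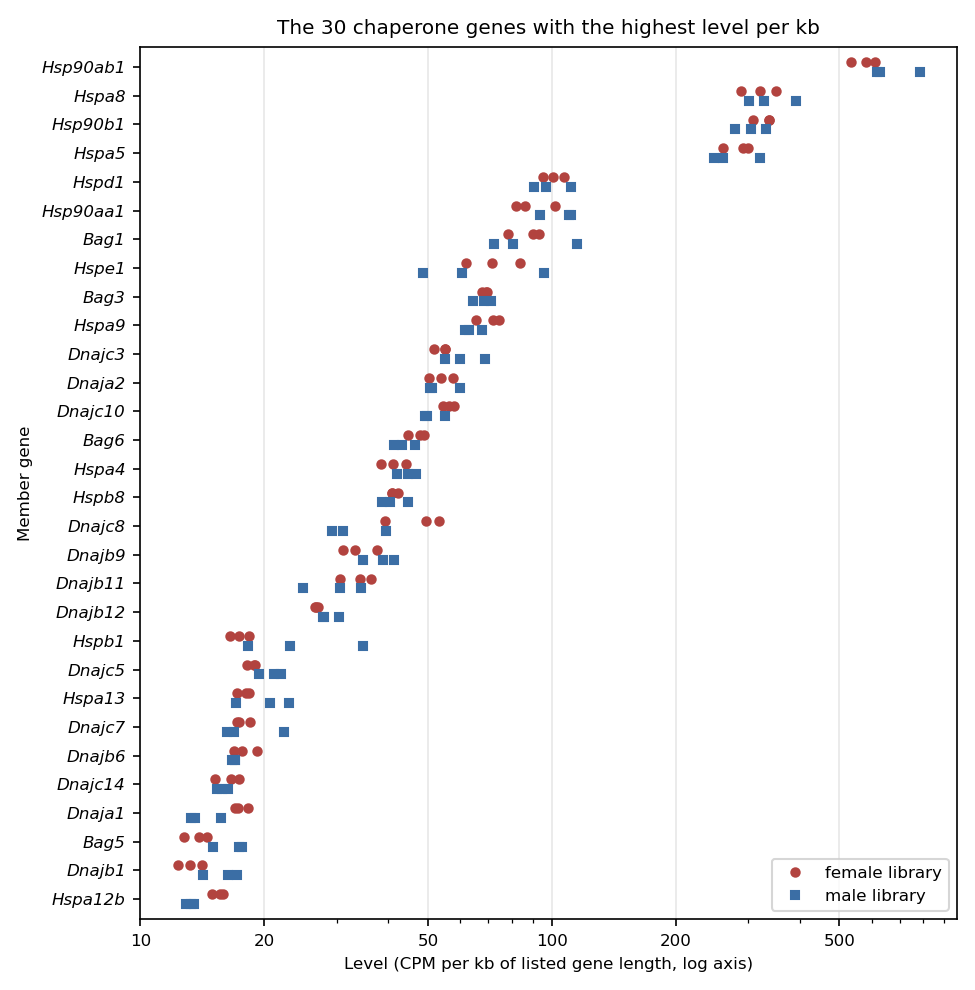
Level in CPM per kb of the listed gene length (log axis) of the 30 most abundant chaperone genes in each of the 3 female (circles) and 3 male (squares) libraries. Hsp90ab1, Hspa8, Hsp90b1 and Hspa5 stand above all others, and for most genes the symbols of the sexes overlap.

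By compartment, the ER and mitochondrial chaperones had mostly small fold changes. Of 8 ER chaperones on a list that does not hold Dnajb14, Dnajc1 fell, 0 rose and 7 were not called (12.5%, against 18.3% of all tested genes). Dnajb9, a J partner of BiP in the unfolded protein response and the most abundant Dnajb gene per kb, had -0.17 ± 0.12 (edgeR adjusted p = 0.369). Dnajc3, an ER lumen J protein that is the most abundant Dnajc gene per kb and carries the ER stress element shown above, had -0.18 ± 0.11 (edgeR adjusted p = 0.332), and passed only without male replicate 3 among the libraries left out in turn (-0.26, edgeR adjusted p = 0.0331). Of 8 mitochondrial chaperones, Dnajc15 rose, 0 fell and 7 were not called (12.5%, against 18.3% of all tested genes). All 8 had fold changes above 0, as had 7321 of the 14932 tested genes, with a median of 0.14 (Hspd1, Hspe1 and Dnajc19 turned below 0 when single libraries were left out). Hspd1, the mitochondrial chaperonin, had 0.019 ± 0.12 (95% interval -0.24 to 0.28; edgeR adjusted p = 0.934) and its co-chaperonin Hspe1 0.087 ± 0.23 (edgeR adjusted p = 0.842), which was 0.41 ± 0.12 and passed without male replicate 3 (edgeR adjusted p = 0.0135). Other transcripts share 23.9% of the 100-base words of Hspd1, and the spans of these 2 genes overlap head to head by 112 bases.

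In the J protein families, 24 Dnajc genes were tested, of which 3 rose and 1 fell, against 0 and 1 of 10 Dnajb genes and 0 of 4 Dnaja genes (1 of the 4 at an unadjusted p under 0.05, and 0 by DESeq2). Called shares were 16.7% of the Dnajc and 10% of the Dnajb genes, against 18.3% of all tested genes. Of the Dnaja genes, limma-voom with quality weights, and edgeR without male replicate 3, called Dnaja1. Dnaja2, the most abundant Dnaja gene per kb and a cytosolic partner of Hspa8, had 0.0014 ± 0.11 (95% interval -0.25 to 0.25; edgeR adjusted p = 0.995). Dnajc17, a J protein with an RNA recognition motif, had a large but variable difference, at 6.22, 5.80 and 6.71 CPM in the female libraries, against 1.65, 4.15 and 4.67 CPM in the male libraries. Male replicate 1 was far below the other male libraries, and the log2 fold change of 0.84 ± 0.34 did not pass (edgeR adjusted p = 0.125), though it did without male replicate 3 (1.10 ± 0.30, edgeR adjusted p = 0.00803), with no filter on low counts and with limma-voom. Of the 6 Bag genes edgeR called 0, with 1 at an unadjusted p under 0.05 and 0 called by DESeq2, while limma-voom with quality weights called Bag5. Bag1, the most abundant per kb, had -0.038 ± 0.17 (95% interval -0.42 to 0.35; edgeR adjusted p = 0.909).

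Low and unexpressed members were mostly genes known from testis, muscle or neurons. Of the 7 members that did not pass the filter, Hspb3 and Dnajb8 had 0 counts in every library, which allows up to 0.128 to 0.171 CPM in a single library (3 counts), and Dnajb13 and Dnajc6 had 1 and 2 counts in all. Hspb9 had 2, 6 and 6 counts in the female libraries, against 3, 3 and 0 counts in the male libraries. Dnajc22 had 5, 3 and 5 counts in the female libraries, against 0, 1 and 1 counts in the male libraries, and Dnajb7, whose span lies opposite to the expressed gene Xpnpep3, had 1, 6 and 0 counts in the female libraries, against 1, 6 and 0 counts in the male libraries. No difference was tested at these counts.

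Genes that work with these chaperones were described from a list of 69 co-chaperones, other folding machines and heat shock genes outside the symbol rule. Of 65 tested, 2 rose, 2 fell and 61 were not called (6.15% called, against 18.3% of all tested genes), with a median log2 fold change of 0.011. Unc45b, a myosin-directed Hsp90 co-chaperone known from striated muscle, had 6.86, 10.1 and 4.87 CPM in the female libraries, against 0.727, 0.663 and 0.740 CPM in the male libraries, with no overlap and log2 fold change 3.35 ± 0.34 (edgeR adjusted p = 9.54e-05). Fkbp5, an Hsp90 co-chaperone of steroid receptors and a known glucocorticoid target, had 34.9, 35.5 and 39.2 CPM in the female libraries, against 89.6, 97.6 and 97.7 CPM in the male libraries. It fell by 1.38 ± 0.11 (log2; edgeR adjusted p = 1.75e-05), and the groups lay far apart.

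Cryab, the small heat shock protein alpha B-crystallin, had 9.97, 12.04 and 15.8 CPM in the female libraries, against 21.02, 21.5 and 37.5 CPM in the male libraries. The groups did not overlap, and it fell by 1.07 ± 0.26 (edgeR adjusted p = 0.0167). The call was lost without female replicate 1 or 2 (edgeR adjusted p = 0.0662 and 0.0652). Among the 14 subunits of the chaperonin TRiC and of prefoldin, which fold actin and tubulin, 0 were called, and likewise 0 of 12 Hsp70 cofactors and 0 of 11 organelle chaperones and proteases. At an unadjusted p under 0.05 these numbers were 3, 1 and 0 (21.4%, 8.33% and 0%, against 29.7% of all tested genes). DESeq2 called 0 in each of these lists, against 17% of all genes it tested. Without male replicate 3, edgeR called 2 of the TRiC and prefoldin subunits, 3 of the Hsp70 cofactors and 1 of the organelle genes higher, and 0 lower. That fit called 32.7% of all genes then tested in either direction. With limma-voom and quality weights, 2 subunits were called higher and 1 lower, 2 Hsp70 cofactors higher and 1 organelle gene higher. That tool called 44% of all tested genes in either direction.

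**Figure D4:**
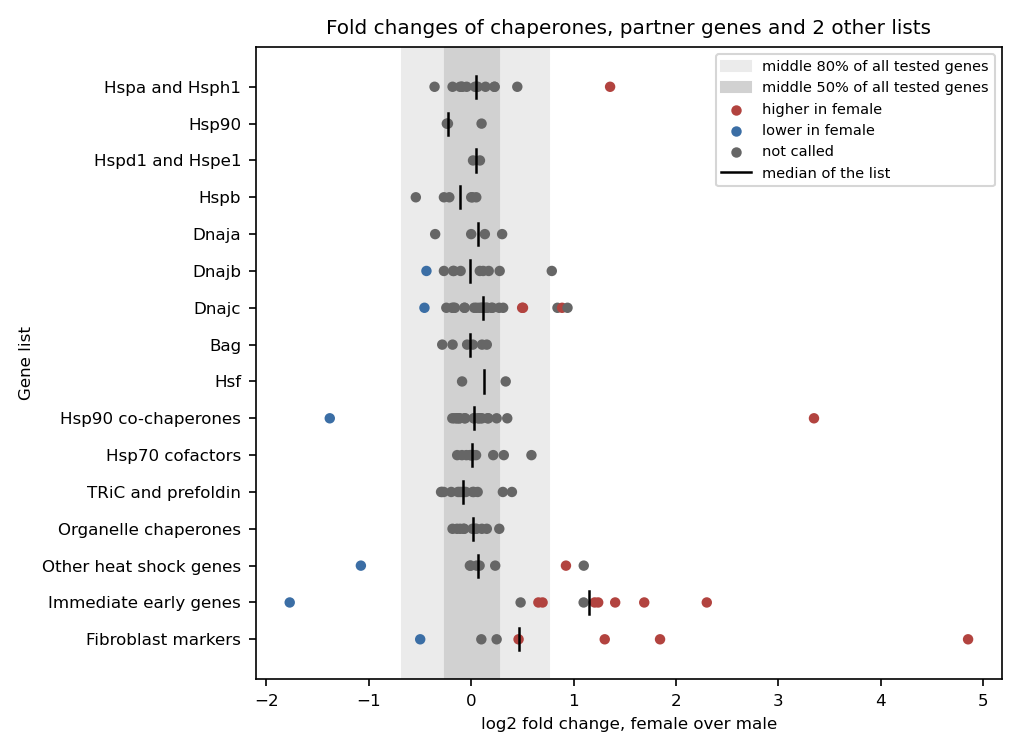
Log2 fold change of female over male of each tested gene (points) by family and list, with the list median as a black bar and grey bands for the middle 50% and 80% of all tested genes; Hsph1 is drawn with the Hspa genes. Unc45b, Fkbp5 and Cryab lie outside the bands, as do most of the 10 immediate early genes.

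How firmly the 6 calls stand differed between genes. Hspa4l and Dnajc15 were called under all 14 alternative settings, with edgeR, DESeq2 or limma adjusted p-values of 6.24e-18 to 0.0126 and 7.61e-06 to 0.0174. Dnajc1 and Dnajb14 were called under 8 of the 14, and Dnajc8 and Dnajc21 under 7. Neither Dnajc1 nor Dnajb14 was called when any female library, male replicate 1 or male replicate 2 was left out. Dnajc8 lost its call without female replicate 2, female replicate 3, male replicate 1 or male replicate 2, and Dnajc21 without any female library or without male replicate 2. With all 6 libraries kept, RLE or upper quartile scaling alone also removed the calls of Dnajc8 and Dnajc21. Without male replicate 3, 10 members were higher and 5 lower (21.1%, against 32.7% of all genes then tested). The 9 members added were Dnaja1, Dnajb2, Dnajb11, Dnajc11, Dnajc17 and Hspe1, higher in female, and Dnajc3, Hspa12a and Hspa13, lower. Limma-voom with quality weights, which gave male replicate 3 a weight of 0.188, called 36.6% of members, against 44% of all tested genes, and the members it called included Hspa5 and Hsp90b1.

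Male replicate 3 was the highest of the male libraries in 41 of the 71 tested members (57.7%, against 42.5% of all tested genes) and the lowest in 18 (25.4%, against 41.3%). The members in which it was highest had a median listed length of 3565 bases, and those in which it was lowest 5437 bases. Over all tested genes the same medians were 2894 and 5779 bases. The part of this pattern in the chaperone values was not tested.

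**Figure D5:**
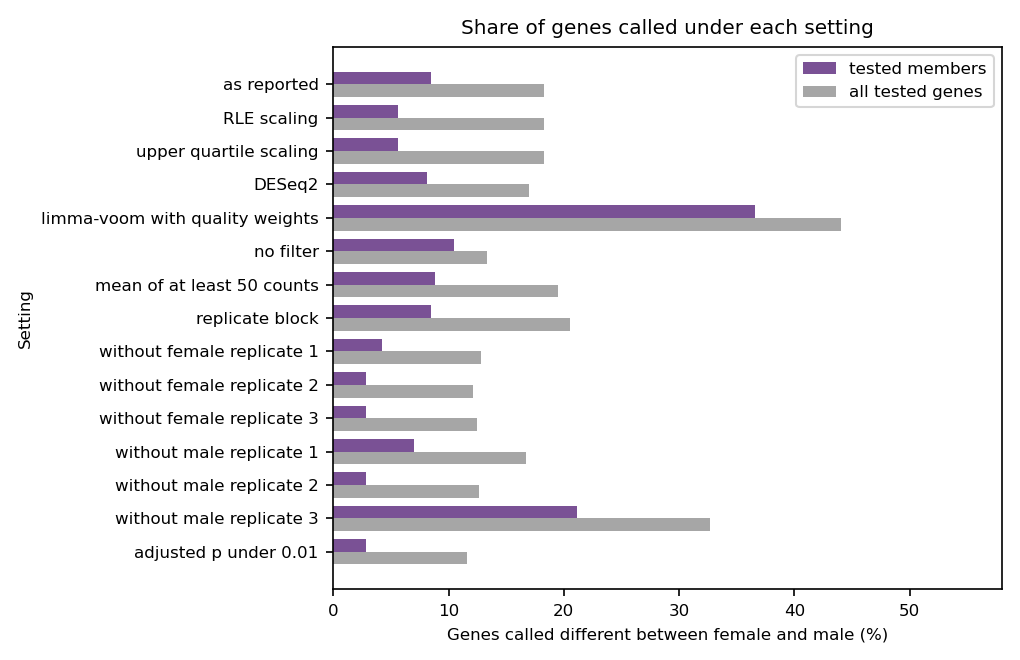
Percent of genes called different between female and male under each setting, for the tested chaperone genes (upper bars) and for all tested genes (lower bars). The share of chaperone genes lies below that of all genes under every setting drawn, at 8.45% against 18.3% as reported.

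By position, only chromosomes 1 and 4 were summarized. The others were not, so whether this pair stands out among the chromosomes was not tested. The 5 members on chromosome 1 (Bag2, Dnajb2, Dnajb3, Hspd1 and Hspe1) all had fold changes above 0, as had 606 of its 889 tested genes. The fold changes of Hspd1, Hspe1 and Dnajb3 turned below 0 under some alternatives. In edgeR with all 6 libraries 0 of the 5 were called, with 0 at an unadjusted p under 0.05 and 0 by DESeq2. Without male replicate 3, edgeR called Dnajb2 (adjusted p = 0.019) and Hspe1 (adjusted p = 0.0135), and limma-voom with quality weights called Dnajb2. Of all tested genes on the chromosome, 18.4% were called higher and 5.17% lower. The median log2 fold change of the 5 members was 0.15, against 0.18 for the 889 tested genes of that chromosome and -0.009 for all tested genes. On chromosome 4, 1 of 9 tested members was called higher and 0 lower, with a median of 0.12 against 0.15 for its 901 tested genes, of which 125 were called higher (13.9%) and 46 lower (5.11%).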

How the data were processed

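RNA-seq of poly-A RNA gave 3 female and 3 male libraries, grouped by the sex in the labels. The deposited table holds whole-number read counts per gene, not normalized by the authors. The tools in the submitters' processing notes are HISAT2 2.0.5 and featureCounts 1.5. Not given in the sources used here are the genome build, the strand setting and the handling of reads with several matches. The labels' protocols describe a directional and a non-directional library without saying which was made. Coordinates are those of the table, and 75 of the 78 members have the same ones in GENCODE M21 (GRCm38).

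The table was fitted with edgeR 4.0.16 in R 4.3.3 (quasi-likelihood F test, robust, TMM scaling, filterByExpr with a minimum count of 10), without covariates. Adjusted p-values are Benjamini-Hochberg values over all 14932 tested genes, and a gene was called under 0.05. CPM uses TMM-scaled totals, and log2 fold changes have female on top. The fit was tested on simulated data. The alternatives tried were scaling by RLE or the upper quartile, the tools DESeq2 1.42.0 and limma 3.58.1 (voom with quality weights), no filter, a mean of at least 50 counts, a replicate block, omission of each library and an adjusted p under 0.01. Summing Hspa1a and Hspa1b was added after the data were seen. Floors of 3 counts cover counting error only. Libraries of a sex differed by more than sampling noise (chi-square per degree of freedom 7.43 to 70.8).

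The members, lists and markers were chosen with earlier results of these data known. Named genes were the called members, the most abundant member per kb of each family, Hspa1a, Hspa1b, Hspa8, Hsp90aa1, Hsp90ab1, Hspa5, Dnajb1, Hspb1, Hsf1 and Hsf2, untested members with at least 10 counts, called partner genes and genes opposite to a called member. Other genes with values, among them Hspa4, Hsph1, Hspe1, Hsp90b1, Dnajc17 and Dnajc19, were chosen after their values were seen. Of the genes under the rule, 1 is not reported here. Sequence words of 100 bases came from GENCODE M21 transcripts, and promoter windows from RefSeq. No window was matched for Bag4, Dnajc2, Dnajc5, Dnajc11, Dnajc12, Dnajc18, Dnajc22, Dnajc30, Hsf1, Hsp90aa1, Hsp90ab1, Hspa8, Hspa9, Hspa13 and Hspb2.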

Additional observations from a re-analysis of the deposited data

How the results depend on the processing

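Limits lie in 3 libraries per sex, in male replicate 3 and in calls close to the threshold. Hspa4l, Dnajc15, Unc45b and Fkbp5 kept their direction and their call under every alternative run. With limma-voom and quality weights, 3288 genes were higher and 3283 lower, 15 and 11 of them members, with 13 partner genes higher. An adjusted p under 0.01 left 900 and 835 genes, 2 and 0 members, and 1 and 1 partner genes. RLE and upper quartile scaling each left 2 members higher. When libraries were left out singly, 967 to 2508 genes were higher and 903 to 2543 lower, 2 to 10 members were higher and 0 to 5 lower, and 1 to 12 partner genes were higher and 1 to 2 lower. The highest of these counts, that of lower partner genes apart, came without male replicate 3. Other counts stayed within 1.5 times the reported ones, and the cause of the changes was not tested.

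The sign of the fold change turned under at least 1 alternative in some members, and in 0 of the 6 called ones. With libraries left out, the log2 fold change ran from -0.17 to 0.19 for Bag1, -0.0538 to 0.0809 for Dnaja2, -0.0646 to 0.29 for Dnajc19, -0.18 to 0.0262 for Hspa8, -0.0425 to 0.16 for Hspa5, -0.28 to 0.0497 for Hspa1b, -0.0472 to 0.0618 for Hspb8, -0.0481 to 0.11 for Hspd1 and -0.11 to 0.41 for Hspe1. Limma-voom gave 0.12 for Bag1, 0.0563 for Hspa8 and 0.0714 for Hspa1b. RLE scaling gave -0.0103 for Dnaja2 and -0.0099 for Hspb8, and DESeq2 -0.0085 and -0.0081.

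Replicate numbers were not shown to pair the samples, since deviations from the group mean correlated at 0.300, -0.0533 and 0.197 between same-numbered libraries. Of the female libraries, only replicate 3 correlated best with its own number. With the replicate block 4 members were higher and 2 lower, as without it, and 1619 and 1449 of all genes.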
